A study of Mus musculus with 10 samples.

Results

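Whether the effect of losing Runx3 on RNA levels in natural killer cells (NKC) differed between culture in IL-15 and culture in IL-2 was examined gene by gene. For each gene, the KO minus WT difference in IL-2 was subtracted from the KO minus WT difference in IL-15, both on the log2 scale. The result is called here the difference of effects: a positive value means that the KO effect was higher, or less negative, in IL-15. All 10 arrays of the series were used. They fall into 4 groups: 3 arrays each of WT (Runx3 +/+) and KO (Runx3 -/-) cells grown in IL-2, and 2 arrays each of WT and KO cells grown in IL-15. All cells came from spleens of ICR mice aged 6 weeks, labelled as male or female, with a separate mouse for every array. NKC were enriched by negative selection and grown for 7 days, with recombinant human IL-2 at 1000 u/ml or with mouse IL-15, for which the labels do not clearly give a dose. The methods add a sort for the NKC antigen DX5. The KO mice lack Runx3 in all their cells and not in NKC alone.

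Runx3 is a DNA-binding factor of cytotoxic lymphocytes that can raise or lower the transcription of its targets, together with partner proteins such as CBF-beta. IL-2 and IL-15 signal through the same beta and common gamma receptor chains to JAK and STAT5. They differ in their private alpha chains: Il2ra, which raises the affinity for IL-2, and Il15ra, which mainly presents IL-15. Both cytokines sustain the growth, granule content and survival of NKC.

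Several features of the arrays bear on every value below. Adding the WT and KO values of a number gave a sum that was identical between the numbers of a cytokine to within 0.00014 (log2) for each of 45101 probe sets, so differences between numbered pairs had been removed before deposit. The spread of WT arrays is therefore the mirror image of that of KO arrays, and the error of a KO effect comes from the 3 differences within pairs for IL-2 and the 2 for IL-15. Xist, expressed from the inactive X chromosome, had values of 4.64 to 5.37 in the arrays of IL-2 and 14.28 to 14.66 in those of IL-15, while the Y-linked Eif2s3y lay between 7.31 and 9.17 in IL-2 and between 2.34 and 2.43 in IL-15. Culture and the sex of the mice thus cannot be told apart in any difference of effects. The Runx3 probe set had group means of 11.65 (WT) and 11.07 (KO) in IL-2 and of 12.48 and 11.38 in IL-15. Its difference of effects was -0.52 (95% interval -1.76 to 0.72, limma adjusted p = 0.72), and since the position of the probes relative to the deleted part is not known here, it does not check the genotype. Of 11 NKC markers with a probe set, 10 reached log2 5 in at least 1 array, and Itga2, which encodes the DX5 antigen, stayed between 2.18 and 2.45 in all 10 arrays. The signal of 3′ over 5′ control probes for Gapdh, a sign of RNA integrity, was 0.86 to 1.09 (log2) in WT and 1.27 to 1.51 in KO in IL-2, and 0.14 and 0.96 in WT against 1.72 and 2.55 in KO in IL-15. The same ratio for Actb was lower in KO: 1.54 to 1.58 in WT and 1.47 to 1.51 in KO in IL-2, and 1.73 and 1.89 in WT against 1.70 and 1.54 in KO in IL-15. The part of RNA integrity in the results was not tested.

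No gene passed the test for a difference of effects. Of 9391 genes tested, 0 had a limma adjusted p under 0.05 with at least a 1.5-fold difference (0%). The smallest adjusted p was 0.0551, shared by Cd163l1, Sh3d19, Ret and Fads3, and 19 genes had an adjusted p under 0.1. At an unadjusted p under 0.05, 1106 genes (11.8%) differed, 434 of them higher in IL-15 (4.62%) and 672 lower (7.16%). With quantile normalization 600 were higher and 589 lower, so the excess of lower values depended on scaling. The difference of effects over all genes had a median of -0.14, against -0.03 with quantile normalization and -0.11 with centring, and gene groups are read below against -0.14. The pair values of the cultures did not overlap for 2954 genes (31.5%). An exact permutation of 2 against 3 pairs cannot reach below p = 0.1 for any single gene, so such a test was not used.

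The absence of called genes does not show that the effects were alike. The 95% interval of the difference had a median half-width of 1.14 on the log2 scale. It lay within 1 of 0 for 336 genes (3.58%) and within 1.5-fold for 0 genes. Between the cultures, the KO effects correlated across the 9391 genes at Pearson r = 0.65 and Spearman rho = 0.54. Single pairs of the same culture correlated at r = 0.58 to 0.72 in IL-2 and 0.59 in IL-15, and pairs of different cultures at r = 0.39 to 0.65. These values are across genes, which are not independent replicates. The standard deviation of effects across genes was 1.16 in IL-2 and 0.90 in IL-15.

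KO differed from WT in 1851 genes in IL-2 (19.7%), of which 990 rose (10.5%) and 861 fell (9.17%). In IL-15, with 1 pair fewer, 122 genes changed (1.3%), of which 43 rose (0.458%) and 79 fell (0.841%), or 41 and 47 with quantile normalization. Both tests called 93 genes in the same direction (0.99%), 34 up and 59 down, and 0 genes in opposite directions. These are 76.2% of the IL-15 calls and 5.02% of the IL-2 calls. A gene called in IL-2 and not in IL-15 is not shown to differ between the cultures, since the difference itself was tested and passed for none.

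**Figure D1:**
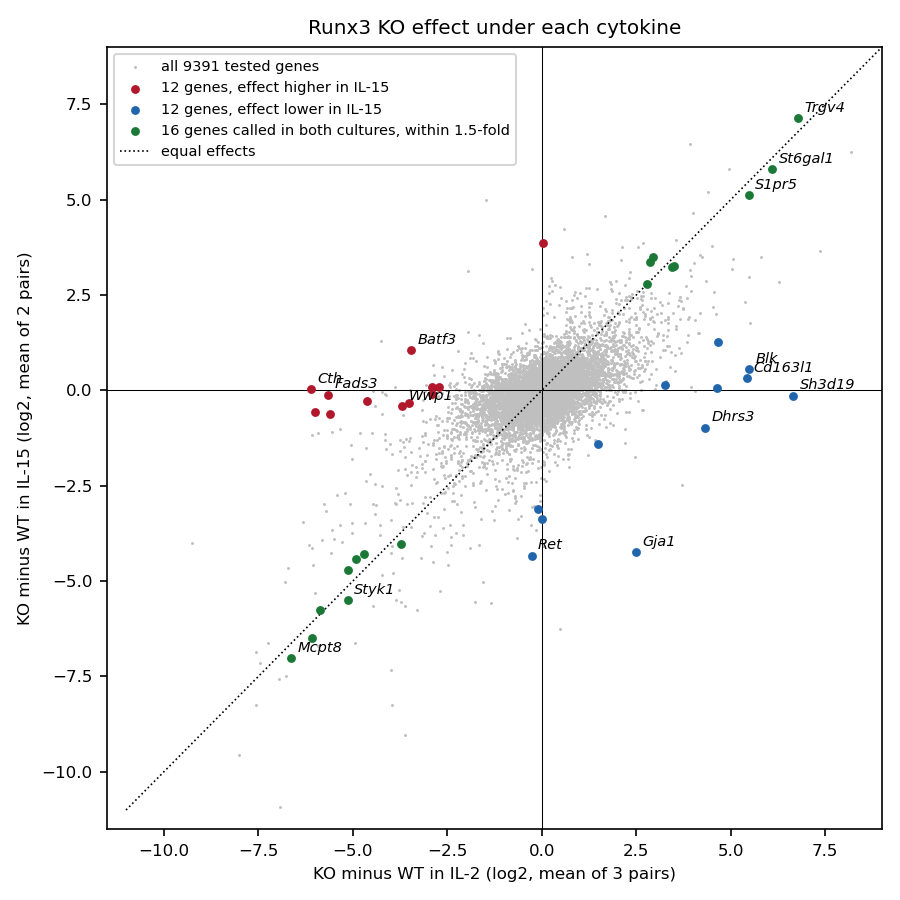
KO minus WT on the log2 scale in IL-2 (x axis, mean of 3 pairs) against IL-15 (y axis, mean of 2 pairs) for 9391 genes (grey), with the 12 genes of lowest p in each direction of the difference (red and blue) and 16 genes called in both cultures in one direction (green). Cd163l1, Sh3d19, Fads3 and Ret lie close to an axis, with a small effect in 1 culture, while St6gal1, S1pr5 and Mcpt8 lie near the line of equal effects with no floor applied.

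Low p-values for the difference were a larger share of the genes near background in one culture than of the genes above it in all groups. A log2 value of 5 was taken as the edge of background. In 291 genes both IL-15 groups, but not both IL-2 groups, averaged under 5, and 29.9% of them had an unadjusted p under 0.05 for the difference. For the 199 genes with both IL-2 groups under 5 the share was 21.6%. It was 10.4% for the 8331 genes whose 4 groups were all at or above 5. The filter, log2 5 or more in at least 2 arrays, kept genes near background in one culture largely through the culture where they were high. The higher shares are therefore partly set by the filter and are a description. Among genes called in IL-2, 119 had both IL-15 groups under 5, of which 84 had fallen in IL-2, and among genes called in IL-15, 15 had both IL-2 groups under 5. Where a gene was near background in both genotypes of a culture, a KO effect could not be measured there, and the difference of effects mostly restates the effect in the other culture. Of the 19 genes with an adjusted p under 0.1, 17 had a group under 5, and of the 24 genes of lowest p described next, 20 did.

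A set of 12 genes had the lowest p for a higher effect in IL-15. None of them was called for the difference. Fads3, a member of the fatty acid desaturase family, read 7.08, 7.57 and 7.90 in the WT arrays of IL-2 and 2.30, 1.81 and 1.48 in the KO arrays. The IL-15 arrays read 1.80 and 1.81 in WT and 1.69 and 1.69 in KO. It was thus on in 1 of the 4 groups, WT in IL-2, where it fell by 5.65 ± 0.83 (SD, 3 pairs), at least 5.71-fold. The difference of effects was 5.54 (95% interval 4.25 to 6.83, limma adjusted p = 0.0551). The same layout, a mean above 5 in WT in IL-2 and under 5 in the other groups, was seen for 8 more: S1pr3 (a sphingosine 1-phosphate receptor), Cth (the cystathionine lyase that makes cysteine), B4galnt2 (a glycosyltransferase), Atg9b (an autophagy gene), Fst (follistatin, which binds activins), Fkbp11, Cysltr1 (a leukotriene receptor) and Pak6 (a kinase). Fkbp11 and Cysltr1 had WT means in IL-2 of only 5.27 and 5.77, so their falls are bounded at 1.21-fold and 1.7-fold or more. With values under 5 set to 5, their differences of effects were 0.27 and 0.77. For Cth, WT arrays in IL-2 read 8.33, 8.47 and 9.47 and KO arrays 3.09, 2.95 and 1.94, while the 4 IL-15 arrays lay between 2.60 and 2.68. Batf3, an AP-1 type factor of dendritic cells and lymphocytes, fell in IL-2 from a mean of 9.90 to 6.45 and was under 5 in both IL-15 groups (2.19 and 3.24).

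Wwp1 and Ccn5 were the exceptions in that set. Wwp1, a ubiquitin ligase, was above 5 in every group, although KO in IL-2 lay close to that edge. It read 9.19, 9.39 and 9.08 in WT and 5.57, 5.36 and 5.67 in KO in IL-2, and 7.82 and 8.35 in WT against 7.93 and 7.40 in KO in IL-15. WT and KO overlapped in IL-15 and lay far apart in IL-2, where Wwp1 fell 12.9-fold. Its difference of effects was 3.27 (2.15 to 4.39, limma adjusted p = 0.109), with no group under 5. The 3 probe sets of Wwp1 gave differences from 1.24 to 3.27. Ccn5, a secreted matrix protein, was under 5 in all IL-2 arrays and in WT in IL-15 (2.29 and 1.58), and read 5.44 and 6.15 in KO in IL-15. It rose there by 3.86 on the log2 scale, at least 1.73-fold.

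Another 12 genes had the lowest p for a lower effect in IL-15, and again none was called. Of these, Dhrs3, Calhm6 and Gja1 are described further on with the opposite effects. Cd163l1, a scavenger receptor of the CD163 family known from gamma-delta T cells, had the smallest unadjusted p of all genes. It read 6.33, 6.12 and 5.84 in WT and 11.28, 11.50 and 11.77 in KO in IL-2. The IL-15 arrays read 6.62 and 6.60 in WT and 6.93 and 6.95 in KO. The 3 KO arrays of IL-2 stood apart from the other 7, and all 4 groups were above 5. Cd163l1 rose by 5.42 ± 0.49 (42.8-fold) in IL-2, against 0.33 ± 0.03 in IL-15, a difference of -5.08 (-6.11 to -4.05, limma adjusted p = 0.0551).

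Sh3d19, an SH3 domain adaptor, had the same layout but with a floor. Its KO arrays in IL-2 read 9.85, 8.85 and 8.99, and its other 7 arrays lay between 1.96 and 2.96. It rose at least 18.8-fold in IL-2, with a difference of effects of -6.79 (-8.33 to -5.25). Slc15a3 (a lysosomal peptide transporter), Nt5dc2 and Blk (a B lymphoid tyrosine kinase of the Src family) were likewise under 5 in both IL-15 groups and rose in IL-2. With WT means there of 2.20, 2.77 and 2.61, the rises were at least 3.56-fold, at least 5.44-fold and at least 8.6-fold. Neurl1b, a ubiquitin ligase, was above 5 in all groups and rose 9.52-fold in IL-2, against a difference of 0.13 ± 0.43 in IL-15.

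Ret, Kcnc1 and Ms4a15 fell in IL-15 and were under 5 in both IL-2 groups. Ret, a receptor tyrosine kinase, read 8.47 and 8.31 in WT and 3.98 and 4.14 in KO in IL-15. Its 6 IL-2 arrays lay between 3.77 and 4.41. It was on in WT in IL-15 alone among the groups and fell by 4.33 ± 0.23 there, at least 10.5-fold, with a difference of effects of -4.06 (-5.01 to -3.11, limma adjusted p = 0.0551). Kcnc1, a potassium channel, and Ms4a15 fell by 3.36 and 3.12 on the log2 scale in IL-15 from WT means barely above 5, so only at least 1.41-fold and at least 1.17-fold are bounded.

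**Figure D2:**
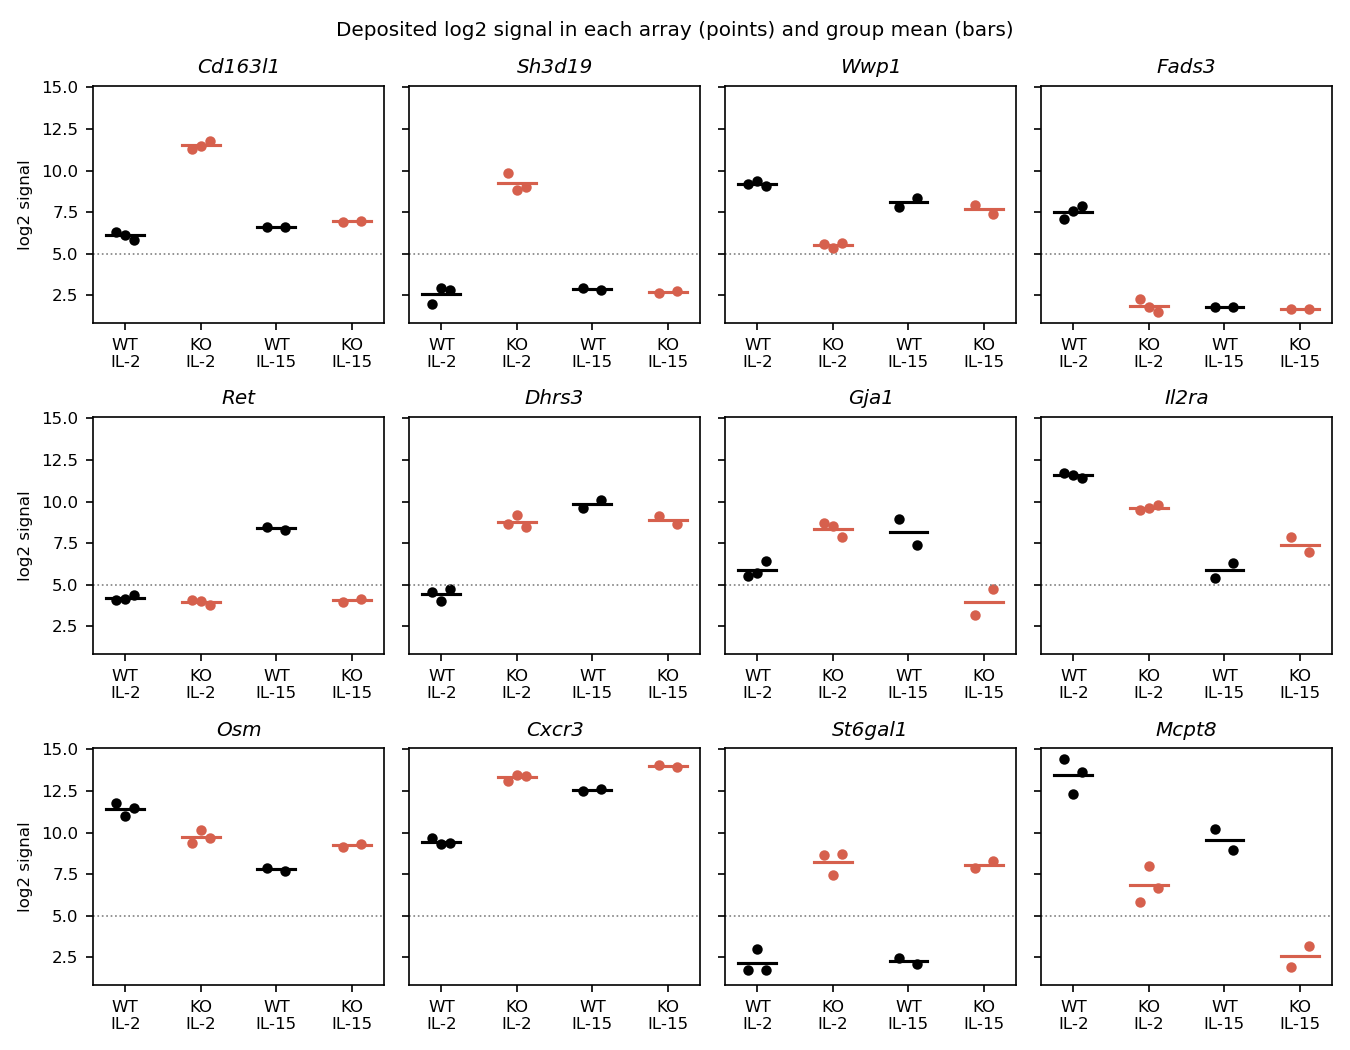
Deposited log2 signal of 12 genes in each array, with points for arrays, a bar for the group mean and a dotted line at log2 5, the edge taken for background. Sh3d19, Fads3 and Ret were above the line in 1 group, Wwp1, Cxcr3 and Cd163l1 stayed above it in all groups, and St6gal1 had the same layout in both cultures.

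Opposite effects were few. In 91 genes (0.969%) the pairs of one culture were all positive and those of the other all negative, with a mean effect of at least 1.5-fold in each. KO was above WT in IL-15 for 30 of them and in IL-2 for 61, and 70 had all groups at or above 5. Dhrs3, a retinal reductase, rose in IL-2 from 4.57, 4.04 and 4.72 in WT to 8.64, 9.18 and 8.49 in KO. In IL-15 it read 9.62 and 10.11 in WT and 9.13 and 8.65 in KO. WT in IL-2 was thus the low group, and the other 3 groups lay near each other. Calhm6, a channel protein of the calcium homeostasis modulator family, rose in IL-2 from a mean of 9.53 to 11.03, and in IL-15 it read 12.47 and 12.82 in WT and 11.42 and 11.07 in KO. KO cells of both cultures were near the same level and WT cells were not. Gja1, a connexin of gap junctions, rose in IL-2 from 5.88 to 8.37 (group means), and read 8.98 and 7.41 in WT and 3.16 and 4.73 in KO in IL-15. Its KO mean in IL-15, 3.94, was under 5, so the size of its effect there is only bounded. The 5 probe sets of Gja1 gave differences of effects from -6.74 to -0.27, and the values here are from the probe set at -6.74.

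Genes of the cytokine pathway itself gave some of these opposite values. Il2ra read 11.73, 11.61 and 11.40 in WT and 9.48, 9.60 and 9.81 in KO in IL-2. In IL-15 it read 5.43 and 6.33 in WT and 7.85 and 6.95 in KO. Its WT level was far higher in IL-2 than in IL-15, and the gap was smaller in KO. Il2ra fell 3.86-fold in IL-2, had a KO minus WT difference of 1.52 ± 1.28 in IL-15 that did not pass the test, and had a difference of effects of 3.47 (2.05 to 4.89, limma adjusted p = 0.182). Oncostatin M (Osm), a STAT5 target and cytokine, behaved alike, with a fall of 1.67 ± 0.78 in IL-2, a value of 1.44 ± 0.28 in IL-15 and a difference of 3.11 (1.84 to 4.38). Lif, a related cytokine, differed by 0.19 ± 1.13 in IL-2 and 2.54 ± 1.55 in IL-15. Its WT mean in IL-15, 3.29, was under 5, so that value is bounded only at 1.77-fold or more. The difference of effects of Lif, 2.35, was 0.64 with values under 5 set to 5. The kinase Pim2, also induced through STAT5, rose by 2.15 ± 0.05 in IL-15 and differed by 0.66 ± 0.21 in IL-2. Over the 28 tested genes of cytokine receptors and JAK-STAT5 signalling, 4 had an unadjusted p under 0.05 in the higher direction (background 4.62%). In the lower direction there was 1 (7.16%), the receptor Il21r. The shared receptor chain Il2rb and the private chain Il15ra had differences of -0.36 and 0.07.

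Some genes were called in both cultures with fitted effects of similar size. Of the 93 genes called in both, 36 had effects within 1.5-fold of each other (0.383% of genes tested), 17 up and 19 down. This choice uses the KO effects, so their agreement is a description. S1pr5, the sphingosine receptor of NKC egress, read 4.53, 4.49 and 5.09 in WT and 10.36, 10.39 and 9.79 in KO in IL-2, and 4.92 and 4.19 in WT and 9.30 and 10.04 in KO in IL-15. WT averaged under 5 in both cultures, so KO was at least 36.3-fold higher in IL-2 and at least 25.5-fold higher in IL-15. Its difference of effects was -0.36, with an interval from -1.82 to 1.09. The sialyltransferase St6gal1 read between 1.72 and 2.99 in the 5 WT arrays and between 7.42 and 8.69 in the 5 KO arrays. Trgv4 and Trgv1, variable segments of the T cell receptor gamma locus, rose by 6.78 and 2.85 in IL-2 and by 7.13 and 3.37 in IL-15. Nlrc5, the activator of MHC class I genes, rose by 2.77 ± 0.73 and 2.80 ± 0.69, a difference of 0.03 (-1.31 to 1.36). Pxylp1, Rgs12 and Tiam1 were the other members of the 8 largest shared rises. Their differences of effects lay between -0.22 and 0.55, and the 2 probe sets of Pxylp1 differed in sign (-0.22 and 0.60). Nlrc5, Trgv1 and Pxylp1 were at or above 5 in all groups. With values under 5 set to 5, Rgs12 had a difference of -1.11, S1pr5 -0.48, Trgv4 -0.36 (from 0.35), Tiam1 0.27 and St6gal1 -0.19.

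Shared falls were led by Mcpt8, a serine protease named for mast cells. It read 14.44, 12.30 and 13.62 in WT and 5.84, 7.98 and 6.66 in KO in IL-2. In IL-15 it read 10.19 and 8.96 in WT and 1.94 and 3.17 in KO. Mcpt8 fell 99.2-fold in IL-2. Its KO mean in IL-15, 2.55, was under 5, so the fall there was at least 23.9-fold. The difference of effects was -0.39 (-3.45 to 2.67), and it turned to 2.06 when values under 5 were set to 5. The desmosomal cadherin Dsg2, the unconventional myosin Myo10, the kinase-like receptor Styk1, Dmwd, Gipc2, Tfpi2 (a protease inhibitor) and Piwil2 (a Piwi protein) fell as well, with differences of effects from -0.40 to 0.51. All 8 genes averaged under 5 in KO in at least 1 culture, so the size of the fall is a lower bound there, and a like size in both cultures is not shown. With values under 5 set to 5, the differences became 3.22 for Dmwd, 2.22 for Myo10, -1.05 for Dsg2, 0.88 for Piwil2 (from -0.28), 0.79 for Gipc2, 0.50 for Tfpi2 and -0.45 for Styk1. Without that floor, the 3 probe sets of Myo10 gave differences from 0.13 to 2.24.

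Promoter letters of both gene sets were compared with the RUNX core, TGTGGT, the variant ending in C (TGTGGC), the CpG form TGCGGT and the form with both changes, TGCGGC, read on both strands. Windows of 250 bases before the start came from RefSeq (GRCm38.p6). Of the 24 genes of lowest p for the difference, 16 had a window, and 12 of their 21 windows (57.1%) held a core. Of the 36 genes called in both cultures with effects within 1.5-fold, 23 had a window, and 12 of their 39 windows (30.8%) held one. Over all 32851 windows the share was 38%, and over those of the tested genes 41.9%. Counted by gene, 9 of the 16 (56.2%) and 12 of the 23 (52.2%) had a core in at least 1 window, against 46.7% of tested genes with a window and 41.3% of all genes, so the gap between the sets was smaller by gene than by window. A match is a string of letters and not a bound site. Shown 5′ to 3′ on the strand of the gene are B4galnt2 and Sh3d19, which were on in 1 group each, and Mcpt8 and St6gal1, called in both cultures in one direction. The window of St6gal1 is 1 of 3, and the other 2 held 0 cores. Capitals mark the cores or their reverse complements.
B4galnt2 (chr11:95914872-95915121, minus strand): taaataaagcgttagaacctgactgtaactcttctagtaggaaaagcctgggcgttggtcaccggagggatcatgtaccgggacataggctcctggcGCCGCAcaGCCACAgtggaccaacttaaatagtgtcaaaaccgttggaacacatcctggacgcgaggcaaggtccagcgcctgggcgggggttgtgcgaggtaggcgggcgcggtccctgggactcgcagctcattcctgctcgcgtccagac
Sh3d19 (chr3:85970868-85971117, plus strand): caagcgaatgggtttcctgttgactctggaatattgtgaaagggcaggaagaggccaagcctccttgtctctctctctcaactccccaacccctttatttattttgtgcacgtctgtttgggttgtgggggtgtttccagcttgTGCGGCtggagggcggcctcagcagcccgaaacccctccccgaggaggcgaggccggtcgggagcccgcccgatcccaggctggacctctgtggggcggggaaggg
Mcpt8 (chr14:56085198-56085447, minus strand): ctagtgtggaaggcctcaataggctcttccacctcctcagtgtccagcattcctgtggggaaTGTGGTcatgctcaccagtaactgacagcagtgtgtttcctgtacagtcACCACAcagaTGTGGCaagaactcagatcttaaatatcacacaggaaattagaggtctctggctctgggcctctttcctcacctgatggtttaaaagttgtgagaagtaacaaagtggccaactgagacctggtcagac
St6gal1 (chr16:23224490-23224739, plus strand): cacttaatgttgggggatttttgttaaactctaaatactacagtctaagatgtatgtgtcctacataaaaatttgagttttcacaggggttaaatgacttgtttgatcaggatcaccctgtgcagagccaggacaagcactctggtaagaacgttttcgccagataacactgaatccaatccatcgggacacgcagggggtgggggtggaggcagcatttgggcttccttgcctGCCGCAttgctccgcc

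Gene lists by function were described by counts and medians, without a test. Since 1.3% of all genes were called in IL-15, 0 calls there in a list of these sizes is near the background throughout. Lists of lipid synthesis had a median effect that was less negative in IL-15. Of 21 genes of cholesterol synthesis, 17 fell in IL-2 (against 9.17% of all genes) and 0 were called in IL-15. Their median effect was -1.78 in IL-2 and -0.86 in IL-15, and the median difference of effects was 0.73, against -0.14 over all genes. The pair values did not overlap, with IL-15 higher, for 10 of the 21 (background 11.4%) and with IL-15 lower for 0 (20.1%), while 4 passed an unadjusted p under 0.05 (4.62%). Hmgcs1, which makes HMG-CoA at the entry of the pathway, read 14.73, 15.12 and 14.42 in WT and 12.19, 11.80 and 12.50 in KO in IL-2, and 14.55 and 14.44 in WT and 13.39 and 13.50 in KO in IL-15. WT levels were alike in both cultures, no floor was involved, and the KO effect was -2.59 ± 0.70 in IL-2 and -1.05 ± 0.16 in IL-15. Hsd17b7, a sterol reductase, fell by 2.28 ± 0.25 in IL-2, where WT had a mean of 11.66. In IL-15 the WT mean was 8.82 and the KO effect 0.16 ± 1.26. Mvk (0.05), Fdps (0.24) and Cyp51 (0.59) had smaller differences of effects, with negative effects in both cultures.

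Fatty acid synthesis had a median difference of 0.61 over 17 genes, with 4 higher (background 4.62%) and 1 lower (7.16%) at an unadjusted p under 0.05. The malic enzyme Me1, a source of NADPH, read 8.32, 8.37 and 8.10 in WT and 6.14, 6.08 and 6.35 in KO in IL-2 and 5.71, 6.18, 6.73 and 6.26 in the 4 IL-15 arrays. Scd1, the stearoyl-CoA desaturase, fell by 7.45 ± 3.41 in IL-2 and had an effect of -7.15 ± 1.86 in IL-15, a difference of 0.30.

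Amino acid genes and targets of the stress factor ATF4 also had a less negative median in IL-15 (-0.46, against -1.34 in IL-2). Of 33 genes, 20 fell in IL-2 (against 9.17% of all genes) and 2 in IL-15 (0.841%), Asns and Slc7a5. The median difference was 0.59, with 7 higher (background 4.62%) and 0 lower (7.16%) at an unadjusted p under 0.05. A group under 5 was found for 12 of the 33. The strongest differences were floor cases: Cth (6.12), the arginine transporter Slc7a3 (4.46) and the stress gene Nupr1 (4.07) were under 5 in both IL-15 groups. Slc7a5, the large neutral amino acid transporter, showed the opposite case. It read 13.65, 13.22 and 13.91 in WT and 10.86, 11.30 and 10.61 in KO in IL-2, and 10.32 and 9.77 in WT and 7.07 and 7.62 in KO in IL-15. Its level was lower in IL-15 in both genotypes, and the effects were -2.67 ± 0.70 and -2.70 ± 0.78. Asns, asparagine synthetase, fell by 3.87 and 5.49, and Atf4 itself had effects of -0.45 and -0.54, of which neither passed the test.

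Glycolysis and targets of the hypoxia factor HIF numbered 29, of which 17 fell in IL-2 (against 9.17% of all genes) and 0 were called in IL-15 (1.3%). The median difference was 0.24, with 6 higher (background 4.62%) and 0 lower (7.16%) at an unadjusted p under 0.05. The glucose transporter Slc2a1 read 14.28, 13.70 and 14.17 in WT and 12.43, 13.01 and 12.53 in KO in IL-2, and 11.90 and 12.24 in WT and 12.19 and 11.85 in KO in IL-15. The KO level in IL-2 was close to the level of both genotypes in IL-15. The lactate exporter Slc16a3 (3.59) was a floor case, whereas Vegfa, Bnip3 and P4ha1 had negative values in both cultures, with differences of 2.55, 1.72 and 2.16. Core enzymes such as Aldoa (0.00), Ldha (0.10), Pkm (0.13) and Pgk1 (-0.08) had differences near 0. In contrast, 40 genes of the respiratory chain had 0 calls in IL-2 (background 19.7%) and in IL-15 (1.3%). At an unadjusted p under 0.05 for the difference there were 0 (11.8%), and the median difference was -0.24.

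Ribosome biogenesis had 0 calls over 37 genes in IL-2 (background 19.7%) and in IL-15 (1.3%). Its median effect was 0.02 in IL-2 and 0.33 in IL-15, and the median difference was 0.44. The medians of single pairs were 1.06 and -0.17 in IL-15 and -0.10, -0.54 and 0.48 in IL-2, so the cultures overlapped. The nucleolar protein Dkc1 (2.06) and the ribosome maturation factor Tsr1 (1.73) had an unadjusted p under 0.05.

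Receptors of NKC had a lower median effect in IL-15. Of 21 genes, 6 rose (background 10.5%) and 1 fell (9.17%) in IL-2 and 0 were called in IL-15 (1.3%). The median effect was 0.48 in IL-2 and -0.10 in IL-15, and 5 had an unadjusted p under 0.05 for a lower effect in IL-15 (background 7.16%) and 0 for a higher one. Ncr1 (NKp46), an activating receptor, read 9.48, 10.11 and 9.15 in WT and 11.80, 11.16 and 12.12 in KO in IL-2. The IL-15 arrays read 11.80 and 12.34 in WT and 12.36 and 11.82 in KO. WT in IL-2 was low and the other 3 groups lay together, well above background. Its difference of effects was -2.10 (-3.67 to -0.53, limma adjusted p = 0.326). Klre1, a lectin-like receptor, rose by 1.26 ± 0.19 in IL-2 and had an effect of -0.61 ± 0.16 in IL-15. Klrb1b, an inhibitory receptor for Clr-b, differed by -10.83 and -1.67 in the 2 pairs of IL-15, so its difference of effects of -6.73 comes from pairs that lay far apart. The 5 probe sets of Klrb1b gave differences from -6.73 to -0.87.

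Transcription factors of NKC and lymphocytes had 9 lower (background 7.16%) and 2 higher (4.62%) among 32 at an unadjusted p under 0.05. Their median difference was -0.59, against -0.14 over all genes. Tbx21 (T-bet), a factor of NKC maturation, read 10.77, 11.16 and 11.44 in WT and 12.90, 12.50 and 12.23 in KO in IL-2, and all 4 arrays of IL-15 had values from 12.14 to 12.46. Gata3 had the same layout, with means of 8.26 and 9.47 in IL-2 and 9.68 and 9.60 in IL-15. Both rose in IL-2 to the level seen in IL-15 with or without Runx3. Ikzf2 (Helios) and Irf4 were different. Ikzf2 read 12.40 and 12.23 in WT and 9.28 and 9.46 in KO in IL-15, a fall of 2.94 ± 0.24, and its effect in IL-2, where the level was 5.19 to 6.65, was -0.70 ± 0.85. Irf4 fell by 2.78 ± 0.83 in IL-15, to a KO mean of 3.59, so only at least 2.58-fold is bounded, against a difference of -0.55 ± 0.46 in IL-2. Its difference of effects, -2.23, was -0.82 with values under 5 set to 5. Tox and Bcl11b rose in both cultures, by 4.35 and 3.15 in IL-2 and by 2.87 and 1.80 in IL-15. Zbtb32, Irf8 and Nfil3 had differences of effects of -0.11, -0.07 and 0.36. The 13 ETS factors had 5 rises in IL-2 (background 10.5%) and 0 genes with an unadjusted p under 0.05 for the difference (11.8%).

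**Figure D3:**
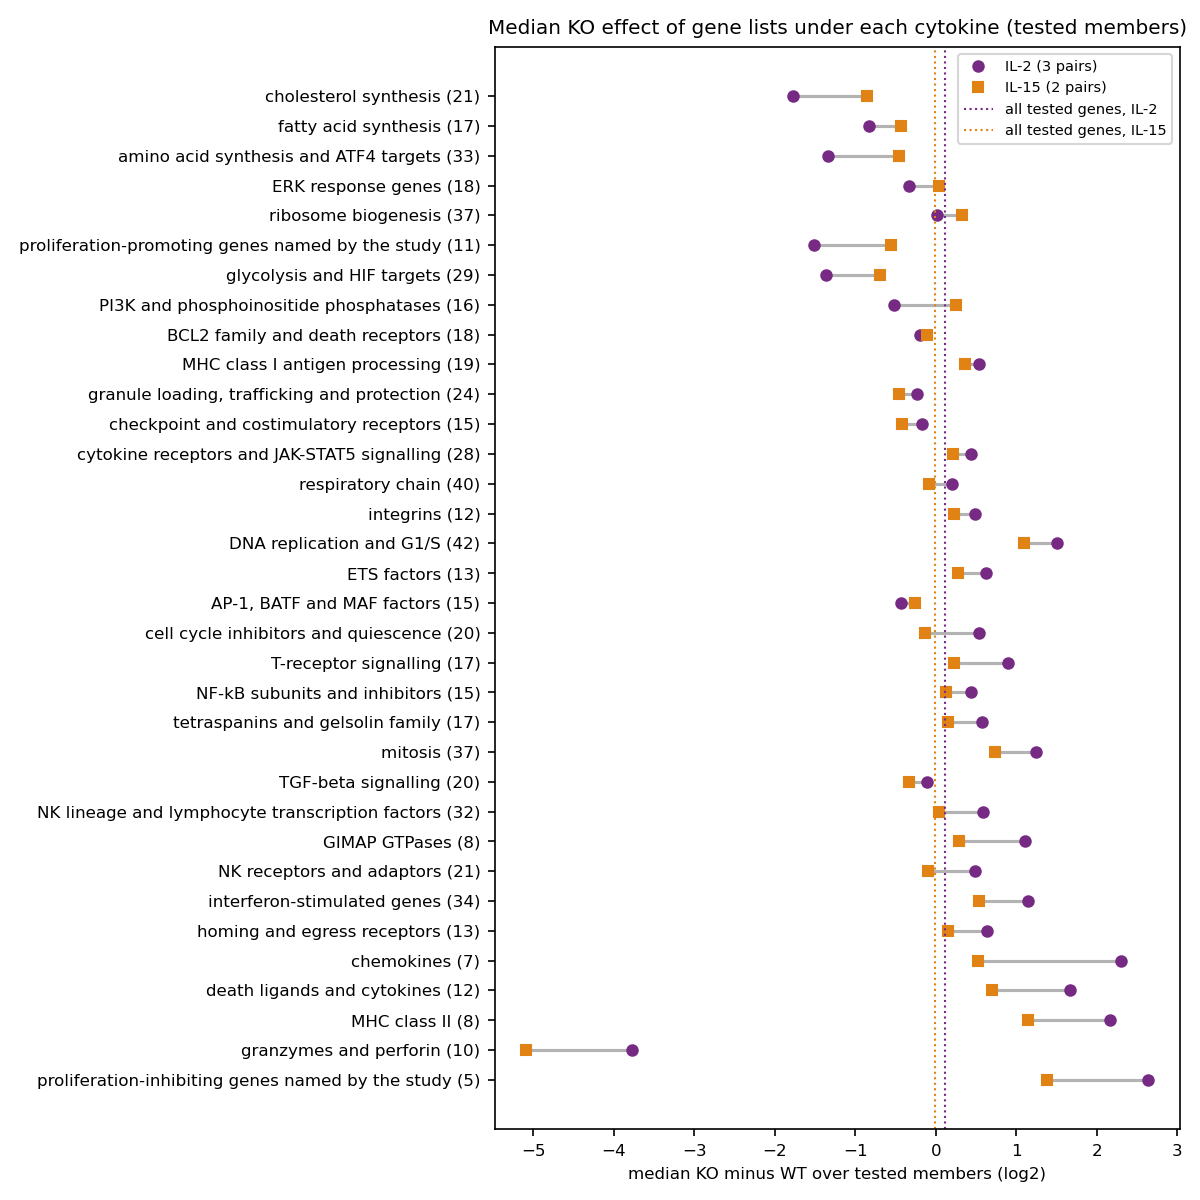
Median KO minus WT (log2) over the tested members of gene lists in IL-2 (circles) and IL-15 (squares), with the number of tested members in brackets and dotted lines for the medians of all tested genes. Lists of lipid and amino acid synthesis had IL-15 medians closer to 0 on the negative side, and lists of chemokines, interferon-stimulated genes and mitosis on the positive side.

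Secreted effectors included several rises called in IL-2, against a background of 10.5%. With 0.458% of all genes called up in IL-15, 0 calls there in lists of this size are near the background and are no result about the lists. Of 12 death ligands and cytokines, 6 rose and 1 fell in IL-2 and 0 were called in IL-15, and of 7 chemokines 5 rose in IL-2 and 0 in IL-15. Tnfsf10 (TRAIL), which triggers death receptors, had means of 7.84 in WT and 9.90 in KO in IL-2 and of 9.54 and 9.62 in IL-15. The chemokine Xcl1, which attracts cross-presenting dendritic cells, rose by 2.69 ± 1.23 in IL-2 and differed by -0.52 ± 1.66 in IL-15. Ifng, the main cytokine of NKC, had effects of 1.73 and 1.16, a difference of -0.57. The homing receptor Cxcr3 read 9.69, 9.30 and 9.35 in WT and 13.08, 13.47 and 13.43 in KO in IL-2. In IL-15 it read 12.50 and 12.61 in WT and 14.06 and 13.94 in KO. KO exceeded WT in each pair of both cultures, and the difference of effects was -2.43 (-3.43 to -1.43, limma adjusted p = 0.182).

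Interferon-stimulated genes had 13 rises in 34 in IL-2 (background 10.5%) and 0 calls in IL-15 (1.3%), near the background. Their medians were 1.15 and 0.53, and 6 had an unadjusted p under 0.05 for a lower effect in IL-15 (7.16%). Irgm1, an immunity-related GTPase, rose by 1.37 ± 0.25 in IL-2 and had an effect of 0.02 ± 0.12 in IL-15, where the 4 arrays lay between 9.74 and 9.85, against 7.41 to 7.64 for WT in IL-2. Rtp4 and Zbp1 had positive values in both cultures, with differences of effects of -1.70 and -1.48. MHC class II genes had a median difference of -1.09 over 8 genes. The median over 19 genes of MHC class I antigen processing was -0.08 and turned to 0.09 with quantile normalization.

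The lists of DNA replication and of mitosis had positive medians in both cultures. For DNA replication with G1/S, 20 of 42 rose in IL-2 (background 10.5%) and 0 were called in IL-15 (1.3%). The median effect was 1.09 in IL-15 and the median difference -0.29. At an unadjusted p under 0.05, 1 was higher (4.62% of all genes) and 1 lower (7.16%). The helicase subunit Mcm2 (0.04), the loading factor Cdc6 (0.35) and the nuclease Fen1 (0.23) had differences of effects near 0 or above. Of 37 genes of mitosis, 16 rose in IL-2 (background 10.5%). The medians of the 37 were 1.24 and 0.74, with 4 lower at an unadjusted p under 0.05 (7.16%). These 4 included Foxm1, the activator of mitotic genes, with a rise of 2.51 ± 0.39 in IL-2 and a value of 1.11 ± 0.17 in IL-15. The pair values of 14 of the 37 did not overlap with IL-15 lower, against 20.1% of all genes. The list median in IL-2, however, was 2.36 in pair 3 and 0.65 and 0.56 in pairs 1 and 2, and the latter pairs lay below the IL-15 medians of 0.81 and 0.66. Among cell cycle inhibitors, Cdkn2c rose in both cultures, by 2.32 and 1.87, and Cdkn1b rose by 1.15 in IL-2 and differed by -0.13 in IL-15. The 2 probe sets of Cdkn1b gave differences of effects of -1.28 and -0.07, and the values here are from the probe set at -1.28.

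The study named genes that promote proliferation, of which 11 were tested. Of these, 6 fell in IL-2 (9.17% of all genes) and 1, Styk1, in IL-15 (0.841%). The differences of effects ran from -2.20 for the integrin Itgae to 3.47 for Il2ra. Styk1 (-0.36), Tnfrsf9 (-0.16), Fhl2 (-0.39) and Myc (0.29) had differences near 0, and the factor Myb had 1.34. The study names all these genes as lower in KO cells. Myc, however, had KO effects above 0 in both cultures (0.86 ± 0.57 in IL-2 and 1.14 ± 0.06 in IL-15). Itgae had 2.21 ± 2.20 in IL-2 and 0.01 ± 0.11 in IL-15, and none of these values of Myc and Itgae passed the test. Of 5 tested genes named as inhibiting proliferation, 4 rose in IL-2 (10.5% of all genes) and 1, Tspan32, in IL-15 (0.458%). An unadjusted p under 0.05 for a lower effect in IL-15 was found for 4 (7.16% of all genes). The tetraspanin Tspan32 read 2.77, 3.09 and 2.80 in WT and 11.20, 10.87 and 11.16 in KO in IL-2, and 5.42 and 5.71 in WT and 11.95 and 11.66 in KO in IL-15. KO was near one level in both cultures, and WT read higher in IL-15. The WT mean in IL-2, 2.88, was under 5, so the rise was at least 67.5-fold there and 75.5-fold in IL-15. Its difference of -1.96, 1 of the 4 just counted, was 0.16 with values under 5 set to 5 and 0.13 with its other probe set. Smad3, which carries TGF-beta signals, had effects of 3.33 ± 0.43 and 1.59 ± 0.33. The 2 probe sets of Smad3 gave differences of effects of -1.74, the one counted, and -0.35. Runx1, the paralog of Runx3, had effects of 2.64 ± 1.13 and 0.62 ± 0.84, and its WT level was 7.01 in IL-2 and 10.12 in IL-15. The study chose these lists partly on the IL-2 arrays, so the counts in IL-2 are not independent evidence of a direction.

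Granule genes were divided by gene. Gzma and Gzmb, the main granzymes, had differences of effects of 0.03 and -0.21 at levels between 15.19 and 16.14 in all arrays. These levels are near log2 16, where a 16-bit scan ends before normalization, so a difference near 0 there is of limited reach, and the part of saturation was not tested. Perforin (Prf1) had effects of -1.73 ± 0.94 and -1.76 ± 0.00, a difference of -0.02 (-1.42 to 1.37). Gzmc read 15.98, 14.93 and 16.80 in WT and 11.85, 12.89 and 11.03 in KO in IL-2, and 14.66 and 13.97 in WT and 6.65 and 7.35 in KO in IL-15. It fell in both cultures, to a lower level in IL-15, with a difference of -3.34 (-5.83 to -0.84, limma adjusted p = 0.329). Gzmd (-5.42) and Gzme (-4.29) had the same sign, with intervals that included 0 (to 0.10 and 1.40). Probes of these closely related genes may cross-react, and WT arrays of Gzme read up to 19.42 in IL-2, above a log2 value of 16. Gzmn had the opposite sign (3.62) and was under 5 in both IL-15 groups. Of 24 genes of granule loading and protection, 1 had an unadjusted p under 0.05 in each direction, Sytl2 (1.07) and Ctsw (-1.12). Among checkpoint receptors, Havcr2 (TIM-3) and Ctla4 fell in both cultures by 6.63 to 7.55 on the log2 scale, with KO means under 5 throughout (Havcr2 at least 184-fold in IL-2 and 14.2-fold in IL-15, Ctla4 at least 45.6-fold and 30.6-fold), and Lag3 fell by 3.86 ± 1.01 in IL-15, to 1.08 and 1.79 from WT values of 5.65 and 4.94. That bounds the fall of Lag3 only at 1.23-fold or more, and its difference of effects, -3.21, was -0.03 with values under 5 set to 5.

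**Figure D4:**
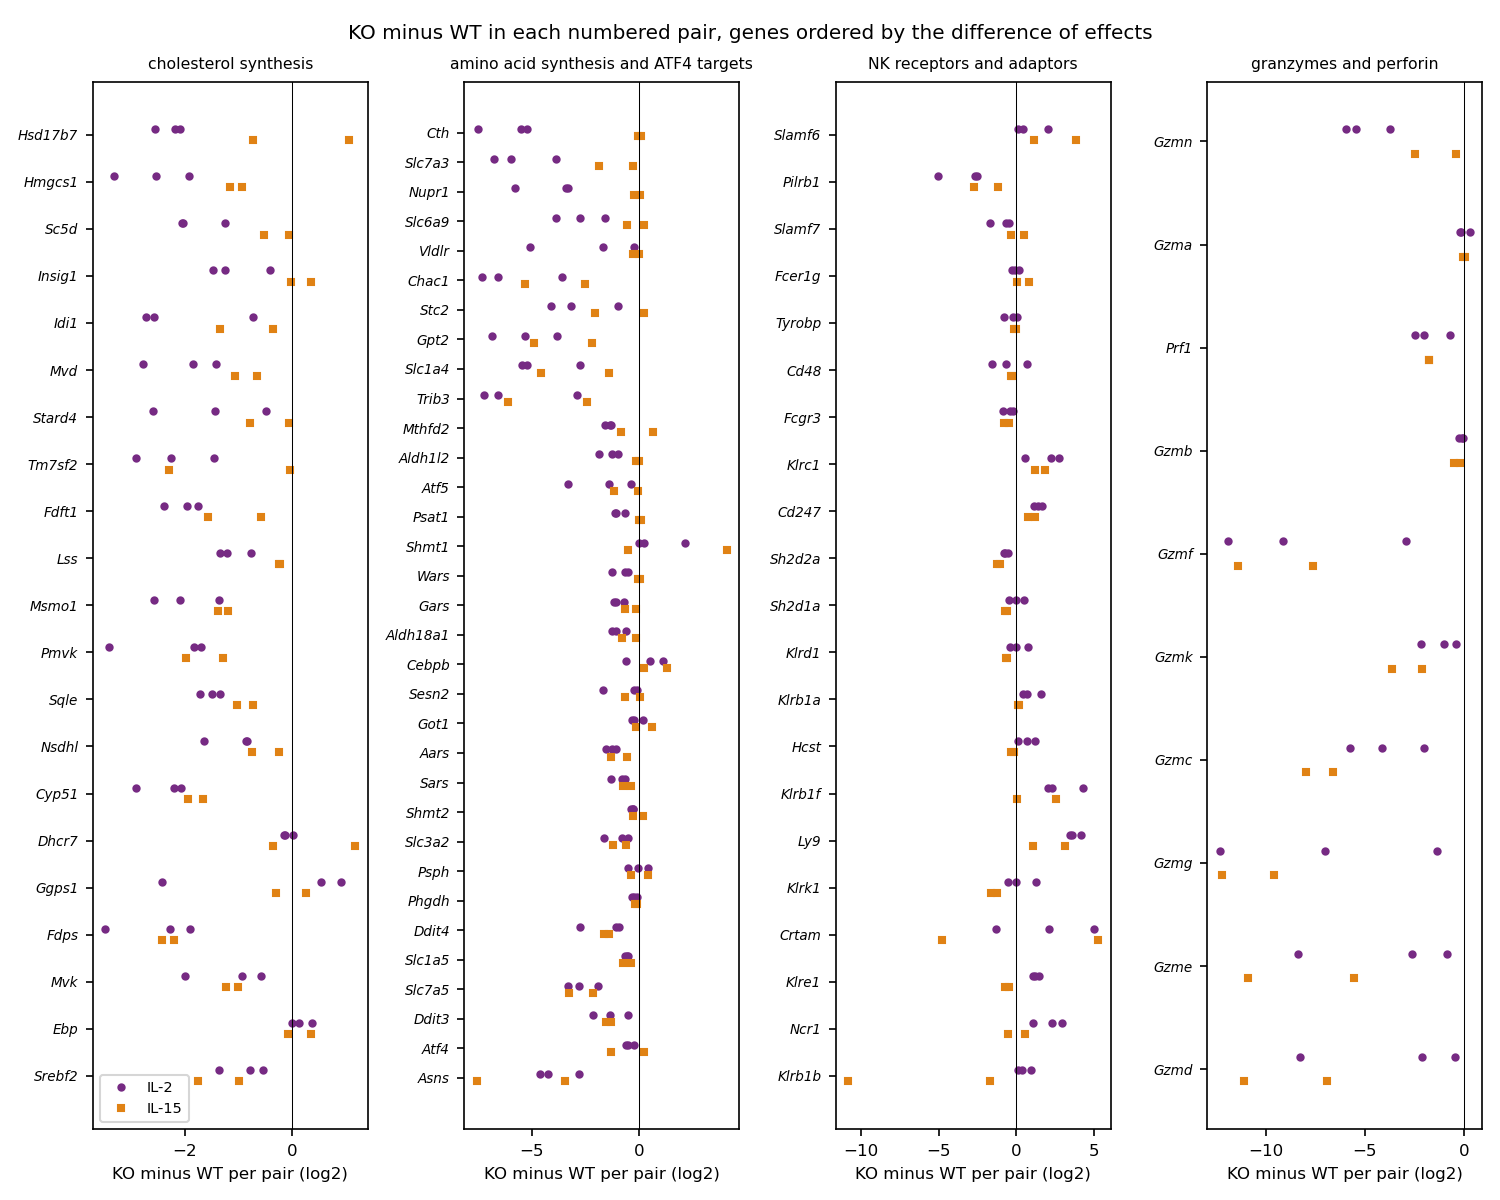
KO minus WT (log2) in each numbered pair for 4 gene lists, with circles for the 3 pairs of IL-2, squares for the 2 pairs of IL-15 and genes ordered by the difference of effects. In cholesterol synthesis the IL-15 pairs of 10 genes lay to the right of all IL-2 pairs.

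For the remaining lists, counts of an unadjusted p under 0.05 for the difference are given against 11.8% of all tested genes. Integrins, BCL2 family genes and NF-kB subunits and inhibitors had 0 of 12, 18 and 15. TGF-beta signalling had 3 of 20, all lower, including Pmepa1, a target of the pathway, whose difference was -3.74 (-6.43 to -1.06). The 2 probe sets of Pmepa1 gave -3.74 and -0.68. GIMAP GTPases had 2 of 8, both lower, and PI3K and phosphoinositide phosphatases 2 higher and 1 lower of 16. ERK response genes had 1 of 18, Egr3 (-1.49), although the median difference of the list was 0.55, against -0.14 over all genes. The medians of single pairs of that list were 0.22, 0.04 and -0.37 in IL-2 and -0.21 and 0.33 in IL-15, so the cultures overlapped. T-receptor signalling had 1 of 17, Blk. AP-1, BATF and MAF factors had 2 in each direction of 15. The 4 mast-cell-type granule proteases had a median difference of -0.54, which turned to 2.19 when values under 5 were set to 5, and tetraspanins and gelsolin proteins had 2 lower of 17, Tspan32 and Cd81.

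Markers of other cell types moved with some of these groups. For B cells, 8 of 10 markers with a probe set, Cd79a, Cd79b and Ms4a1 among them, were under 5 in every array, and Blk and Ighm were the tested ones. The summed level of the list was 8.86 to 8.98 in WT and 11.18 to 11.20 in KO in IL-2, and 9.88 to 10.77 and 10.78 to 11.69 in IL-15. For mast cells and basophils, 7 of 11, including Fcer1a, Ms4a2 and Gata2, were under 5 in every array, and the sums were 12.93 to 14.73 in WT and 10.89 to 11.64 in KO in IL-2, and 13.83 to 14.21 and 11.97 to 12.27 in IL-15. Macrophage sums were 8.27 to 10.83 in WT and 9.37 to 12.16 in KO in IL-2, and 8.87 to 9.53 and 8.74 to 9.51 in IL-15, with 6 of 12 markers, including C1qa, C1qc and Mrc1, under 5 in every array. The other 6 reached 5 in some array: the lysozymes Lyz1 (2.24 to 11.56) and Lyz2 (1.64 to 9.43), the receptor Csf1r (3.41 to 9.39), Cd68 (5.96 to 9.14), Cd14 (2.29 to 9.19) and Adgre1 (3.97 to 5.31). In IL-2 the WT and KO means were 5.69 and 10.10 for Lyz1, 5.07 and 7.97 for Lyz2 and 6.88 and 8.10 for Cd68. They were 7.75 and 6.19 for Csf1r, 7.68 and 3.79 for Cd14 and 4.81 and 4.95 for Adgre1. In IL-15 the means were 2.31 and 7.51 for Lyz1, 2.41 and 5.95 for Lyz2 and 8.85 and 7.15 for Cd68. Csf1r, Cd14 and Adgre1 had higher KO means there. For innate lymphoid cells, 7 of 8 reached 5 in some array, and the sums were 12.30 to 13.30 and 12.92 to 13.57 in IL-2 and 12.14 to 12.38 and 13.15 to 13.32 in IL-15. These 7 did not move together. In IL-2, 5 rose (background 10.5%) and 1, Klrg1, fell (9.17%), from a mean of 12.49 to 9.96. In IL-15, 0 were called (1.3%). Granulocyte sums were 11.17 to 13.86 in WT and 8.32 to 9.47 in KO in IL-2, and 9.49 to 10.08 and 8.17 to 8.48 in IL-15, with 9 of 11 markers under 5 in every array. The remaining markers, Ctsg and Mmp9, moved in opposite directions. Ctsg had means of 12.85 in WT and 5.29 in KO in IL-2, and of 9.64 and 1.40 in IL-15. Mmp9 had means of 4.80 in WT and 8.61 in KO in IL-2, and of 5.35 and 8.08 in IL-15. T cell sums were 12.54 to 13.11 in WT and 11.59 to 11.79 in KO in IL-2, and 13.10 to 13.77 and 12.29 to 12.67 in IL-15, with 7 of 13 markers under 5 in every array, Cd4, Cd8a and Cd5 among them. The T cell receptor chains Cd3d (5.36 to 7.80), Cd3e (5.22 to 7.36) and Cd3g (7.17 to 11.22) and the factor Bcl11b (7.09 to 10.46) were above 5 in every array. The T cell markers did not move together. In IL-2 the WT and KO means were 12.23 and 10.38 for Icos, 10.51 and 3.26 for Ctla4 and 8.74 and 8.18 for Cd3g. They were 7.14 and 10.29 for Bcl11b, 5.85 and 6.99 for Cd3e and 6.13 and 7.03 for Cd3d. In IL-15 Icos, Ctla4, Cd3g and Cd3d (7.13 and 7.09) had lower KO means, and Bcl11b and Cd3e higher ones. Dendritic cell sums lay between 9.21 and 11.82 and NKC sums between 17.41 and 17.78 over all arrays. In these bulk samples fewer cells of a type and less RNA per cell cannot be told apart, and the part of these cells in the differences of effects was not tested.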

How the data were processed

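RNA of cultured splenic NKC was hybridised to Affymetrix mouse arrays, 10 in all. The deposited values are log2 signals of 45101 probe sets, which the authors made with GC-RMA in Partek (versions not given). For each cytokine, the sums of the WT and KO arrays of one number were equal to within 0.00014 (IL-2) and 0.00013 (IL-15), so an undescribed step had removed differences between numbered pairs, and the number was fitted as a pair block. Array medians lay between 3.20 and 3.37, and precision is limited by the number of arrays.

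A gene was represented by its brightest probe set with a single symbol in the platform's gene table (34958 had 1 symbol, 932 several, 9211 none), kept at log2 5 or more in at least 2 arrays. This left 9391 of 18194 genes. Identifiers of 34754 probe sets matched the RefSeq table (GRCm38.p6), used for names and promoters. limma 3.58.1 in R 4.3.3 (lmFit, eBayes) was fitted to all 10 arrays with 5 pair blocks and a KO effect per cytokine. A gene was called where its p, adjusted over all tested genes by the Benjamini-Hochberg method, was under 0.05 with at least a 1.5-fold change. The fit was tested on simulated data. Rose, fell and changed refer to called KO versus WT differences, SDs are over pairs, and intervals are 95% intervals of limma. Folds against a group under log2 5 are taken against 5. The sum of a marker list is the log2 of its summed linear signals.

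Named genes were the 12 of lowest p in each direction of the difference, with no overlap of pair values (none was called), the 8 largest shared effects each way, the 6 opposite genes that ranked first, Runx3, the study's proliferation genes and sex-linked genes, and up to 4 members with the largest difference per list. Other list members and single values were chosen after they were seen. The comparison, lists and members were chosen with earlier results of these data known. Alternatives covered the block, each pair, filters, floor and ceiling, scaling, variance trend, probe sets and the study's thresholds.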

Additional observations from a re-analysis of the deposited data

Results flagged for a closer look

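In 91 genes every pair of one culture moved one way and every pair of the other culture the opposite way, with mean effects of at least 1.5-fold. The 6 of them with the lowest unadjusted p for the difference are given here. The difference itself was tested with limma and none passed. The differences of effects (IL-15 minus IL-2, log2) were -5.30 for Dhrs3 (adjusted p = 0.0666), -2.89 for Calhm6 (adjusted p = 0.0976), -6.74 for Gja1 (adjusted p = 0.109), 3.25 for the phosphatase Dusp9 (adjusted p = 0.177), 2.85 for Specc1 (adjusted p = 0.177) and 3.11 for Osm (adjusted p = 0.182). Dusp9 was under log2 5 in both IL-15 groups, and Calhm6 and Osm were at or above 5 in all groups. The 5 probe sets of Gja1 gave differences from -6.74 to -0.27, and the 2 of Specc1 gave 1.03 and 2.85.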

How the results depend on the processing

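The count of genes called for the difference of effects, 0, remained 0 with no filter, median centring, quantile normalization, an intensity trend, a ceiling of log2 16, probe set means and single probe sets. It was 1157 (436 higher, 721 lower) with no replicate block, which treats arrays as unpaired although pair differences had been removed, 4 (Fads3 higher, Cd163l1, Sh3d19 and Ret lower) at a filter of log2 6, 10 (5 higher, 5 lower) with values under 5 set to 5, and 1099 at the study's thresholds. Those 10 were Arfgef3, B4galnt2, Batf3, Fst and Procr higher and Cd163l1, Dhrs3, Lypd6b, Ret and Sh3d19 lower. Leaving out 1 pair at a time gave 0 to 1, the 1 being Klrb1b without IL-15 pair 2. In IL-2 the 1851 calls became 3803 with no replicate block, 842 with no filter, 2830 with single probe sets and 3404 at the study's thresholds, and 537 to 1525 without 1 pair (537 without IL-2 pair 1, 1026 without pair 2). In IL-15 the 122 calls became 1321 with no replicate block, 0 with no filter and 1274 at the study's thresholds, and 0 to 95 without 1 pair (0 without IL-15 pair 1, 11 without IL-15 pair 2, 12 without IL-2 pair 1). With 1 pair left in a culture, that pair is assumed to vary like the others. The cause of these moves was not tested. Of 197 named genes, 31 turned the direction of their difference of effects under at least 1 alternative. With values under 5 set to 5 the value was 2.53 for Ctsg, -1.61 for Lyz1, 2.06 for Mcpt8, 0.88 for Piwil2, -0.36 for Trgv4 and 0.16 for Tspan32. Quantile normalization gave 0.04 for Pxylp1, and the mean of a gene's probe sets gave 0.19 for Pxylp1 and 0.93 for Smad2. Leaving out 1 pair gave ranges across 0 for 29 genes: Cd3d (-2.25 to 0.13), Cd3g (-3.49 to 0.34), Cma1 (-0.58 to 4.77), Crtam (-6.73 to 3.33), Ctsg (-1.69 to 1.05), Dmwd (-0.41 to 1.45), Dsg2 (-1.37 to 0.33), Fhl2 (-0.73 to 0.16), Gipc2 (-0.21 to 1.31), Ier3 (-0.17 to 2.87), Itga1 (-2.83 to 0.82), Itgax (-3.20 to 0.13), Klra16 (-2.87 to 0.11), Klra7 (-1.20 to 0.39), Lyz1 (-1.47 to 2.24), Mcpt8 (-1.63 to 0.85), Myo10 (-0.90 to 1.16), Nlrc5 (-0.46 to 0.52), Pf4 (-0.67 to 5.76), Piwil2 (-0.98 to 0.37), Pxylp1 (-0.49 to 0.12), S1pr5 (-1.10 to 0.37), St6gal1 (-1.14 to 0.13), Styk1 (-0.91 to 0.19), Tfpi2 (-0.41 to 1.12), Tiam1 (-0.03 to 1.15), Tnfrsf9 (-0.43 to 0.34), Trgv4 (-0.10 to 1.09) and Ubash3b (-0.53 to 2.55). No named gene turned under centring, the trend, the log2 6 filter, no filter, no block or the ceiling. Single probe sets of a gene differed in sign for Pxylp1, Tspan32, Ccne1, Elf2, Erap1, H2-DMa, Ighm, Smad2, Ubash3b and Xist.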
